A study of Caenorhabditis elegans with 18 samples.

Results

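The experiment asked whether small RNA changes caused by loss of set-25 and by loss of nrde-3 add up when both genes are lost. The libraries hold small RNA of early embryos of the nematode Caenorhabditis elegans, from 4 strains that form a complete factorial design, with 3 libraries each. These were N2 (Bristol), the wild type; nrde-3(tm1116) X; set-25(n5021) III; and the double mutant, which carries both of these alleles. No further allele or agent is given for any of them. The embryos came from before the bean stage, 60 to 65 h after synchronization of first-stage larvae. The labels speak of 2 independent biological replicates while 3 libraries per strain are numbered, so some of the spread between libraries may be technical. The genotypes could not be checked in these data, because set-25 and nrde-3 lie on chromosomes that the table does not cover.

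NRDE-3 is an Argonaute protein of somatic cells that binds secondary small interfering RNAs in the cytoplasm and carries them into the nucleus, where nascent transcripts with complementary sequence are silenced. SET-25 is a histone methyltransferase that deposits the repressive trimethyl mark on lysine 9 of histone H3. Nuclear small RNA pathways and this mark meet at repeats and silenced genes. MET-2, the other main methyltransferase for this lysine in worm embryos, was removed in 2 further strains of the series, met-2(n4256) III and met-2;nrde-3, whose levels are given beside some windows.

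Reads of both strands were counted in 20-bp bins over chromosome I and over chromosome II up to position 5899055 of genome build ce10. The bins were summed into 20973 windows of 1 kb, of which 10010 held enough reads in the 12 libraries to be tested. The interaction is the change on losing nrde-3 in the set-25 mutant minus the change on losing nrde-3 in N2, on the log2 scale. An interaction of 0 means that the fold changes of the single mutants multiply to give that of the double mutant. Levels are counts scaled to the TMM-corrected library size (CPM), fold changes are edgeR log2 estimates with their SE, and a window counted as changed at a Benjamini-Hochberg adjusted p under 0.05 over all windows tested. Total reads over these regions ran from 2115436 to 4384593 per library. As the samples are whole embryos, fewer cells of a type and less RNA per cell cannot be told apart.

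The last 13 kb of chromosome I held between 22.8% and 32.8% of all reads in N2 between 32.9% and 54.5% in nrde-3, between 52.8% and 60.5% in set-25 and between 56.3% and 68.8% in the double mutant. The ranges of set-25 and the double mutant overlapped, as did those of nrde-3 and set-25. TMM scaling does not follow these few windows. Scaling to library totals instead lowered the median of set-25 against N2 by 0.57, that of nrde-3 against N2 by 0.29 and that of the double mutant by 0.78 on the log2 scale, and raised the median interaction by 0.08. All changes below are relative to the TMM scale.

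Of the 10010 windows, 280 had an interaction that passed the test (2.80%), 177 above 0 (1.77%) and 103 below 0 (1.03%). Its size was at least 2-fold in 91 of the first and 54 of the second. The counts above and below 0 moved to 74 and 19 under scaling to library totals and to 95 and 48 in a fit of all 18 libraries. With 1 library left out they were as low as 104 above (without N2 replicate 2) and 59 below (without set-25 replicate 2). The median interaction over all windows was 0.01, with quartiles of -0.34 and 0.35 and a median SE of 0.39. The 95% interval of the interaction lay between -1 and 1, within 2-fold of the multiplied effects, in 3733 windows (37.3%). Of these, 34 also passed the test for an interaction. Such closeness does not require that either loss changed the window. Neither a departure nor this closeness could be shown for 6031 windows. Both shares differed with the level of the window. When the windows were split by level into 3 classes of equal size, 0.270% passed the test and 0.390% had such an interval in the lowest class, against 7.31% and 78.3% in the highest.

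The windows that departed from additivity fell into 3 kinds, by comparing the double mutant with the sum of the single-mutant effects. In 52 the double mutant went beyond the sum, in 156 it stood closer to N2 than the sum (buffered), and in 72 it stood on the other side of N2 and at least as far away (turned). The sum and the interaction share the N2, nrde-3 and set-25 libraries with opposite signs, so error in those libraries enlarges the buffered and turned kinds. The counts describe the windows and show no preference for buffering. The sign of the sum separates windows beyond the sum from turned ones. Its median was 0.25 (interaction above 0) and -0.15 (below 0) in the former, and -0.32 and 0.24 in the turned. Under scaling to library totals, 3 windows went beyond the sum and 90 were buffered or turned. On the linear CPM scale, where single changes are added instead of multiplied, the departure had the same sign in 176 of the 177 windows above 0 and in all 103 below 0.

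**Figure D1:**
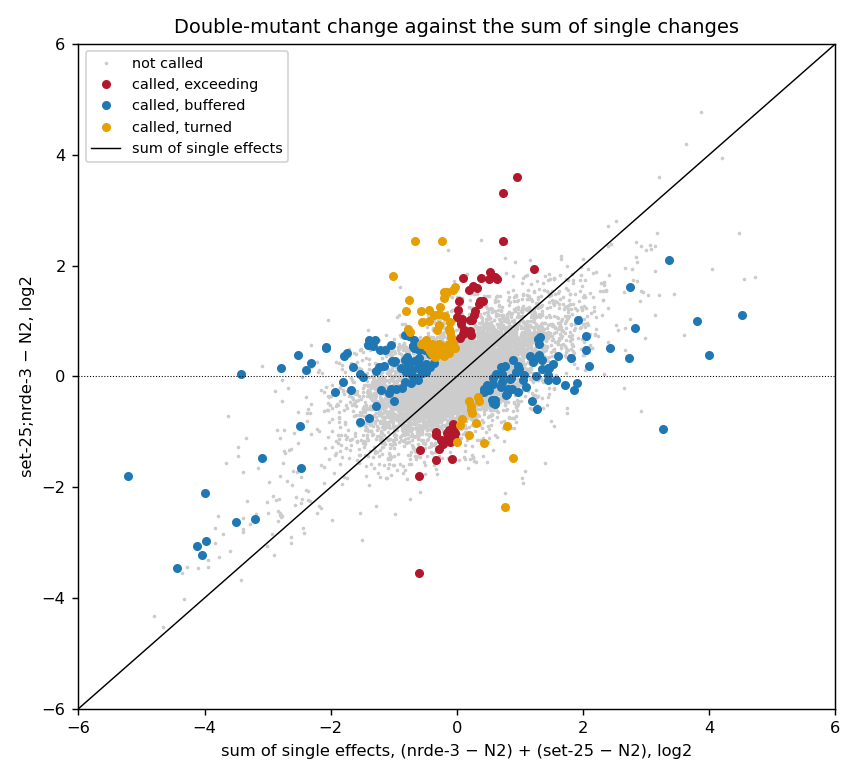
Double-mutant change against N2 (vertical axis, log2) plotted against the sum of both single-mutant changes (horizontal axis, log2), 1 point per 1-kb window with more than 3 reads in each group. The diagonal marks effects that add up on the log2 scale; coloured points are the windows whose interaction passed the test, and the buffered ones lie closer to the horizontal zero line than the diagonal does at the same sum, on either side of that line.

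The strains behind these windows differed with the direction of the interaction. The share of all windows changed in nrde-3 against N2 was 6.85%, with 281 lower (2.81%) and 405 higher (4.05%), that in set-25 was 7.03%, with 3.36% higher and 3.68% lower, and that in the double mutant was 14.5%, with 8.59% higher and 5.94% lower. Among the 177 windows with an interaction above 0, nrde-3 was lower than N2 in 85 and higher in 1. In the same windows set-25 was higher in 29 and lower in 39, and the double mutant was higher in 101 and lower in 15. Among the 103 windows below 0, nrde-3 was higher than N2 in 54 and lower in 3, set-25 was higher in 30 and lower in 10, and the double mutant was higher in 11 and lower in 37. These counts use the contrasts that make up the interaction and are a description only. In 88 of the 280 windows a single mutant differed from N2 while the double mutant did not pass the test, and in 66 the double mutant differed while neither single mutant passed.

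Small RNA that was lost in the nrde-3 mutant was present at the N2 level when set-25 was also absent in a pair of adjoining windows on chromosome I. At I:7895001-7896000 the levels were 31.1, 31.7 and 33.3 CPM in N2, 4.39, 2.29 and 2.71 in nrde-3, 29.2, 34.6 and 32.9 in set-25 and 29.6, 31.5 and 37.9 in the double mutant. All 3 nrde-3 libraries lay below the other 9, which overlapped between groups. The nrde-3 change was -3.43 ± 0.27 (adjusted p = 2.2e-11), the set-25 change 0.01 ± 0.15 and the double-mutant change 0.04 ± 0.15, and the interaction of 3.46 ± 0.31 passed the test (adjusted p = 8.98e-09). The window to its left, I:7894001-7895000, had the same pattern, with 49.0 ± 5.03 CPM in N2, 7.5 ± 1.81 in nrde-3, 47.0 ± 5.19 in set-25 and 53.7 ± 9.67 in the double mutant (SD, n = 3) and an interaction of 2.93 ± 0.26. All 12 bins with at least 30 reads in this window, and all 7 in the first, had an interaction of the same sign as their window. The top bin held 42.9% of the reads in this window and 29.9% in the first. As the bins are parts of windows named for a large interaction, their signs are no separate test. In the met-2 mutant the left window held 0.551 CPM and the right one 1.31, and the met-2;nrde-3 means were 53.7 and 29.7 CPM. Of the 6 strains, nrde-3 and met-2 were the strains with low levels here, while both double mutants that lack nrde-3 stood close to N2.

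On chromosome II, 3 adjoining windows were lower in both single mutants and not lower in the double mutant. In the first, II:4171017-4172016, N2 had 87.2, 64.2 and 68.6 CPM, nrde-3 25.5, 31.2 and 25.9, set-25 48.5, 45.0 and 44.2, and the double mutant 93.9, 106 and 114. The groups did not overlap, and the double mutant was the highest. Multiplied single effects would have put the double mutant at 17.5 CPM. nrde-3 fell by 1.4 ± 0.14 and set-25 by 0.67 ± 0.13, the double mutant rose by 0.52 ± 0.12, and the interaction was 2.59 ± 0.19 (adjusted p = 1.79e-09). The next window, II:4172017-4173016, had an interaction of 2.90 ± 0.31 and the last, II:4173017-4174016, one of 2.52 ± 0.39. In these the double mutant was at 0.39 ± 0.18 and 0.12 ± 0.23 against N2, neither past the test.

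At I:304001-305000 the nrde-3 loss was the deepest of the named windows that were buffered. Levels were 37.9, 24.7 and 23.3 CPM in N2, 2.63, 1.14 and 2.41 in nrde-3, 6.11, 9.61 and 16.7 in set-25 and 6.40, 9.61 and 8.03 in the double mutant. The double mutant overlapped set-25 and lay below N2, so in this window the set-25 level, not the N2 level, was the one found with both losses. The changes against N2 were -3.84 ± 0.45 for nrde-3, -1.38 ± 0.26 for set-25 and -1.81 ± 0.29 for the double mutant, with an interaction of 3.41 ± 0.55 (adjusted p = 0.00014). Here 1 bin held 92.4% of the reads over all 4 strains, with a share of 96.2% in N2 and 61.1% in nrde-3. The nrde-3 libraries together held 18 reads in this window, so the size of the nrde-3 loss is uncertain.

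Other windows gained small RNA in the double mutant beyond what either single mutant gave. At I:10630020-10631019, N2 had 4.24, 3.70 and 4.12 CPM, nrde-3 3.07, 6.29 and 5.73, and set-25 4.41, 7.84 and 5.08, while the double mutant had 38.0, 54.6 and 50.8. The first 3 groups overlapped and all 3 double-mutant libraries lay far above them. Neither single change passed the test (0.39 ± 0.31 and 0.56 ± 0.30), the double mutant rose by 3.59 ± 0.25, and the interaction was 2.63 ± 0.40 (adjusted p = 0.000134). The adjoining window, I:10631020-10632019, rose from 8.26 ± 0.831 CPM in N2 to 81.7 ± 6.63 in the double mutant, with 10.2 ± 0.470 in nrde-3 and 10.9 ± 0.371 in set-25 (SD, n = 3). Its interaction was 2.59 ± 0.25. The met-2 mutant held 124 and 261 CPM in the 2 windows, above the double mutant, and met-2;nrde-3 held 11.4 and 13.1.

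Another window with small RNA mainly in the double mutant was I:11814020-11815019. The double mutant had 12.8, 11.7 and 13.5 CPM and each of the other 9 libraries had between 1.14 and 2.69. Its interaction was 3.12 ± 0.58 (adjusted p = 0.00113). This call was lost with DESeq2 and in the fit of all 18 libraries, where the higher adjusted p was 0.120. The nrde-3 libraries together held 12 reads in this window, so the size of its interaction is uncertain. The met-2;nrde-3 libraries held 0, 9.74 and 2.62 CPM.

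The longest stretch of adjoining windows with an interaction covered 7 kb, from I:11169020 to I:11176019, and in all 7 the double mutant rose beyond the multiplied single effects. In I:11174020-11175019 the levels were 21.9, 20.5 and 24.5 CPM in N2, 5.71, 6.29 and 9.05 in nrde-3, 33.6, 30.3 and 39.7 in set-25 and 56.4, 84.4 and 92.2 in the double mutant. The groups did not overlap. Loss of nrde-3 lowered this window in N2 by 1.64 ± 0.24 and raised it in the set-25 mutant by 1.18 ± 0.16, so the effect of nrde-3 had opposite signs in the 2 backgrounds. The interaction was 2.82 ± 0.29 (adjusted p = 2.11e-07), with 77.6 ± 18.8 CPM in the double mutant where multiplied effects would give 11. The window before it, I:11173020-11174019, behaved likewise, with 7.69 ± 0.464 CPM in N2, 3.02 ± 1.30 in nrde-3, 17.2 ± 1.52 in set-25 and 41.6 ± 1.43 in the double mutant (SD, n = 3) and an interaction of 2.68 ± 0.35. In the other 5 windows of the stretch the interaction ran from 0.90 ± 0.14 to 1.71 ± 0.25. The most abundant of them, I:11170020-11171019, had 97.6 ± 2.91 CPM in N2, 80.1 ± 7.70 in nrde-3, 124 ± 2.6 in set-25 and 196 ± 7.06 in the double mutant. At the right edge, I:11175020-11176019 lost its call in 5 alternatives, among them the fits without N2 replicate 2, N2 replicate 3 or nrde-3 replicate 3 (highest adjusted p = 0.139). I:11171020-11172019 lost its call under scaling to library totals (adjusted p = 0.0668).

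**Figure D2:**
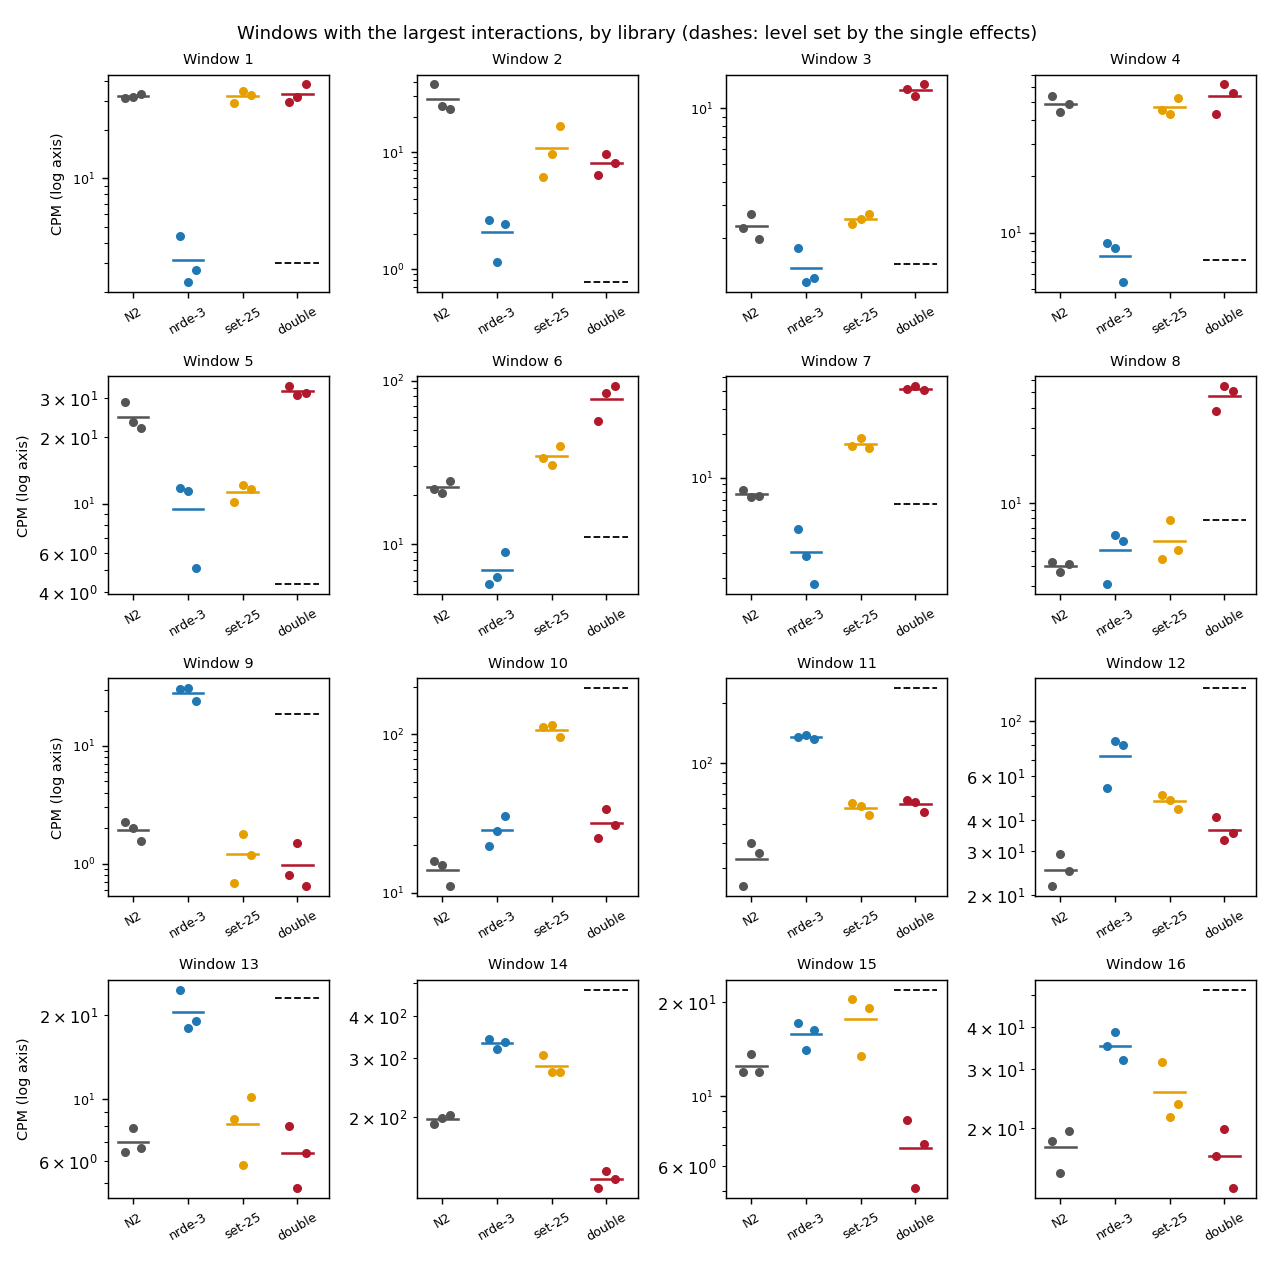
Levels in CPM of the 16 windows named for the size of their interaction, 1 panel per window with 1 point per library and a horizontal line at each group mean, on a log axis. The first 8 panels are above 0 and the others below 0, each in falling size of the interaction; the dashes show the double-mutant level that the multiplied single effects would give; at I:7895001-7896000 this is 3.01 CPM, against 33.0 measured in the double mutant.

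Among interactions below 0, the widest was at II:2006017-2007016, where the level was high in nrde-3 alone. The nrde-3 libraries held 30.3, 30.9 and 24.1 CPM and the other 9 between 0.643 and 2.24. nrde-3 rose by 3.88 ± 0.32 over N2, and the interaction was -4.21 ± 0.68 (adjusted p = 0.00041). The reads were spread over the window, whose top bin held 7.47% of them, and the low counts of the other groups make the size of this interaction uncertain.

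The level was far higher in set-25 than in any of the other 3 strains at I:11902020-11903019. N2 had 15.9, 14.9 and 11 CPM, nrde-3 19.8, 24.6 and 30.5, set-25 111, 114 and 95.9 and the double mutant 22.0, 33.6 and 26.7. The double mutant overlapped nrde-3 and lay far below set-25. set-25 rose by 2.94 ± 0.17, nrde-3 by 0.86 ± 0.19 and the double mutant by 0.99 ± 0.18, while set-25 loss in the nrde-3 mutant gave 0.13 ± 0.18 (adjusted p = 0.726). The interaction was -2.81 ± 0.25 (adjusted p = 2.97e-08). The next window, I:11903020-11904019, had an interaction of -1.51 ± 0.22, with set-25 at 50.9 ± 4.04 CPM and the other 3 groups between 20.3 and 24.7 on average.

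In both single mutants small RNA rose over 4 adjoining windows from I:1734001 to I:1738000, and in the double mutant it did not. The clearest, I:1735001-1736000, had 191, 199 and 203 CPM in N2, 342, 319 and 334 in nrde-3, 306, 273 and 273 in set-25 and 124, 138 and 131 in the double mutant. No groups overlapped, and the double mutant was the lowest. nrde-3 rose by 0.74 ± 0.10 and set-25 by 0.52 ± 0.10, the double mutant fell by 0.59 ± 0.10, and the interaction was -1.86 ± 0.14 (adjusted p = 1.91e-09). Of 48 bins with at least 30 reads in this window, 47 had an interaction below 0. In the other 3 windows the interaction ran from -1.29 ± 0.15 to -1.21 ± 0.18, and the double mutant was within 0.19 of N2 on the log2 scale, not past the test. In I:1737001-1738000 the nrde-3 change of 0.35 ± 0.13 did not pass. All 4 windows were low in the met-2 strain, between 13.6 and 65.4 CPM, and between 82.2 and 481 CPM in met-2;nrde-3.

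A further pair of windows, I:2776001-2778000, showed a rise in both single mutants and no further rise with both losses. In I:2777001-2778000, N2 had 24.4, 40.1 and 35.9 CPM, nrde-3 136, 138 and 133, set-25 63.5, 61.2 and 55.0 and the double mutant 65.6, 64.0 and 57.5. The double mutant lay at the set-25 level and above N2, while nrde-3 was more than 2-fold higher than either mutant with set-25 lost. The changes were 2.0 ± 0.13 in nrde-3, 0.82 ± 0.14 in set-25 and 0.88 ± 0.14 in the double mutant, and the interaction was -1.94 ± 0.19 (adjusted p = 1.74e-07). In I:2776001-2777000 it was -1.91 ± 0.22.

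There were 3 further named windows below 0. At I:10501020-10502019 nrde-3 rose from 7.01 ± 0.769 CPM in N2 to 20.5 ± 3.54, and the double mutant was at 6.41 ± 1.60 (interaction -1.88 ± 0.38). At I:2381001-2382000 nrde-3 rose from 17.5 ± 2.57 to 35.2 ± 3.33, with the double mutant at 16.5 ± 3.32 (interaction -1.64 ± 0.26). II:1645017-1646016 was the only named window below 0 in which the double mutant was lower than N2 with neither single change past the test, with 6.86 ± 1.66 against 12.5 ± 0.95 CPM and an interaction of -1.69 ± 0.33 (adjusted p = 0.00216). Its call was lost in the fit of all 18 libraries (adjusted p = 0.0562).

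**Figure D3:**
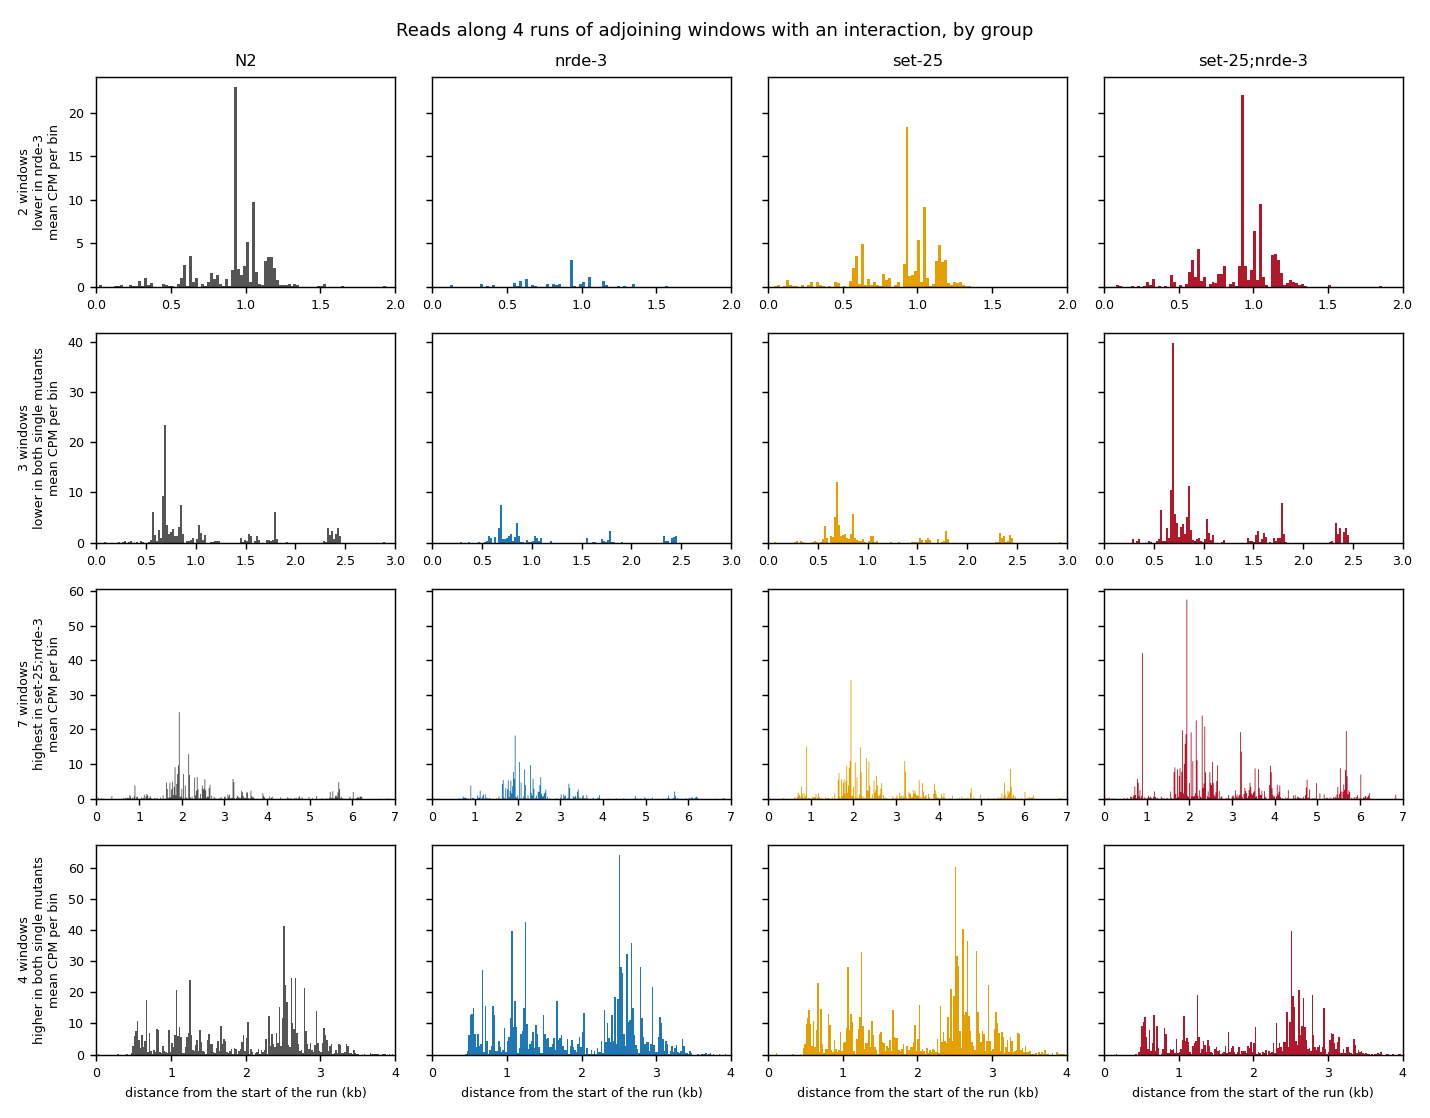
Mean CPM per 20-bp bin (vertical axis, shared within a row) along 4 runs of adjoining windows (horizontal axis, distance from the start of the run in kb), with 1 column per strain and 3 libraries averaged. From the top, the rows show the 2-window run lower in nrde-3, the 3-window run lower in both single mutants, the 7-window run highest in the double mutant, and the 4-window run higher in both single mutants; the same peaks appear in all 4 strains at different heights.

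Departures were spread along both chromosomes. Chromosome I held 208 (2.77% of its tested windows) and chromosome II 72 (2.86%). By megabase, the highest shares were 5.49% between 2 and 3 Mb of chromosome I, 4.80% between 3 and 4 Mb and 4.73% between 11 and 12 Mb, and 4.55% between 1 and 2 Mb of chromosome II. The lowest was 0 of 65 windows past 15 Mb of chromosome I. Most departures were single windows: 166 of the 280 had no neighbour with an interaction of the same sign, and 114 lay in 45 runs of 2 or more. The median share of the top bin was 23.0% in windows above 0, 18.4% in those below 0 and 20.5% in all windows with more than 3 reads per group.

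The right end of chromosome I gave no window with a called interaction. Of its 13 windows, 11 rose in nrde-3, 11 in set-25 and 11 in the double mutant, and the median changes over all 13 were 1.10, 1.7 and 2.16. The outermost 2 windows fell in the double mutant, by 0.73 ± 0.11 and 0.90 ± 0.19. All 13 interactions were below 0, from -0.83 to -0.36 with a median of -0.71, and none passed the test; the windows adjoin and are not independent of one another. A departure of this size was not detectable here.

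Effects that came close to adding up were sought among windows chosen by average effects and not by the test of the interaction. In 1176 windows nrde-3 loss had an average effect over both backgrounds (11.7%), in 1461 set-25 loss had one (14.6%), and in 422 both did. Of these, 757 were higher and 419 lower without nrde-3, and 754 higher and 707 lower without set-25. Under scaling to library totals the balance turned, to 122 higher and 931 lower without nrde-3 and to 151 and 5163 without set-25. In the balanced design the error of these averages is close to orthogonal to that of the interaction. The choice is still not free of the interaction, because a strain that stands apart alone gives both average effects and an interaction. At I:7895001-7896000 the averages were -1.70 ± 0.15 for nrde-3 and 1.74 ± 0.15 for set-25, with an interaction of 3.46 ± 0.31. Of the 422, the interval of the interaction lay within 2-fold of 0 in 228 (54.0%), the interaction passed the test above 0 in 44 (10.4%) and below 0 in 34 (8.06%), and 122 could be put in neither class; 6 were in both. Against 1.77% and 1.03% of all windows, both shares of departures were higher. The choice by average effects can build in part of this difference. The share of departures also differed with the level over all windows, as given above, and the part of level or depth in this was not tested.

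By the signs of the 2 average effects, the 422 windows split into 102 higher for both and 111 lower for both. A further 145 were higher on average without nrde-3 and lower without set-25, and 64 were the reverse. An average effect does not require a change in the single mutant. At I:10630020-10631019 both averages passed the test (1.71 ± 0.20 and 1.88 ± 0.20), while neither single change did. In the windows higher for both, the median sum of single effects was 0.90 and the median double-mutant change 1.16; 59 were within 2-fold of additivity, 10 departed above 0 and 1 below. In those lower for both, the medians were -1.52 and -1.43, with 55 within 2-fold, 11 above and 12 below. nrde-3 replicate 3 weighed on both groups. Without it, 104 windows were higher for both, of which 5 departed above 0 and 11 below, and 102 were lower for both, of which 29 departed above 0 and 10 below. With no filter on low counts, 12 of the windows higher for both departed above 0 and 12 below. Under scaling to library totals, 8 windows were higher for both and 549 lower for both. In the 64 windows lower without nrde-3 and higher without set-25, 19 departed above 0 (29.7%) and 5 below, with a median interaction of 0.42. In the 145 of the opposite kind 4 and 16 did, with a median of -0.14. A window low in nrde-3 alone has the signs of the 64 and an interaction above 0. One high in nrde-3 alone has the signs of the 145 and an interaction below 0. These counts are therefore a description only.

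The windows with the strongest additive losses were on both chromosomes. At II:311017-312016 the levels were 912, 766 and 708 CPM in N2, 75.9, 35.8 and 134 in nrde-3, 316, 324 and 276 in set-25 and 37.2, 30.3 and 36.0 in the double mutant. Both single mutants lay below N2, and the double mutant was lower than set-25 and overlapped nrde-3 replicate 2 only. Averaged over backgrounds, the loss of nrde-3 changed the level by -3.21 ± 0.17 and that of set-25 by -1.32 ± 0.17. Multiplied effects put the double mutant at 31.5 CPM, and it was measured at 34.5 ± 3.66, with an interaction of 0.13 (95% interval -0.58 to 0.83). At I:13843020-13844019, N2 had 276, 278 and 280 CPM, nrde-3 65.8, 63.5 and 151, set-25 108, 120 and 92.9 and the double mutant 44.4, 36.6 and 35.7. The double mutant was the lowest and stood at 38.9 ± 4.78, where multiplied effects give 36.4 (interaction 0.09, 95% interval -0.51 to 0.69). II:3597017-3598016 went from 513 ± 23.0 CPM in N2 to 109 ± 18.7 in the double mutant, with 102 from multiplied effects. I:473001-474000 went from 49.1 ± 8.02 to 9.95 ± 3.64, with 8.81. In all 4 of these windows nrde-3 replicate 3 was the highest of its group, and without it their interactions were between 0.42 and 0.68, none past the test. On the linear scale the 2 single losses together exceed the whole N2 level in these 4 windows, so only multiplied effects could add up.

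Rises whose interaction interval lay within 2-fold of 0 were of smaller size, and in a pair of the 4 named ones the interval excluded 0. At I:13979020-13980019 the levels were 564, 621 and 557 CPM in N2, 834, 869 and 751 in nrde-3, 955, 913 and 866 in set-25 and 1518, 1617 and 1617 in the double mutant. N2 was the lowest and the double mutant the highest with no overlap, and the ranges of the single mutants overlapped. The average effects were 0.65 ± 0.07 for nrde-3 and 0.80 ± 0.07 for set-25, and the interaction was 0.30 (95% interval 0.02 to 0.59, adjusted p = 0.295). The double mutant averaged 1584 CPM where multiplied effects give 1283. At II:2053017-2054016, N2 had 22.8 ± 2.11 CPM, nrde-3 35.5 ± 1.02, set-25 44.2 ± 4.77 and the double mutant 64.9 ± 1.73, where multiplied effects give 69.3 (interaction -0.09, 95% interval -0.47 to 0.28). At II:5418016-5419015 the double mutant was at 28 ± 8.13 CPM where multiplied effects give 34.8 (interaction -0.30, 95% interval -0.91 to 0.30). At I:7530001-7531000 it was at 93.9 ± 14.5 where they give 66.0 (interaction 0.52, 95% interval 0.12 to 0.92, adjusted p = 0.178).

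Opposed effects could also add up, which did not always bring the double mutant back to the N2 level. At II:1893017-1894016, N2 had 39.6, 44.8 and 47.4 CPM, nrde-3 88.2, 90.7 and 62.4, set-25 18.3, 14.2 and 16.7 and the double mutant 31.6, 28.2 and 30.8. nrde-3 lay above N2, set-25 lay below it, and the double mutant fell between set-25 and N2 with no overlap. It was at 30.2 ± 1.76 where multiplied effects give 29.6 (interaction 0.03, 95% interval -0.43 to 0.48). The double mutant was still lower than N2 there, with a change of -0.55 ± 0.15 that passed the test. At II:1989017-1990016 the same kind of window had an interaction of -0.30. There the double mutant was at 11.8 ± 3.69 CPM against 25.6 ± 0.242 in N2, a change of -1.13 ± 0.21 that passed the test. With the reverse signs, I:7153001-7154000 had 11.6 ± 0.297 CPM in N2, 4.68 ± 0.658 in nrde-3, 18.2 ± 0.208 in set-25 and 6.76 ± 1.82 in the double mutant (interaction -0.10). Its double-mutant change of -0.75 ± 0.24 also passed the test. I:11823020-11824019 had an interaction of 0.07, and its double-mutant change was -0.002 ± 0.23.

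**Figure D4:**
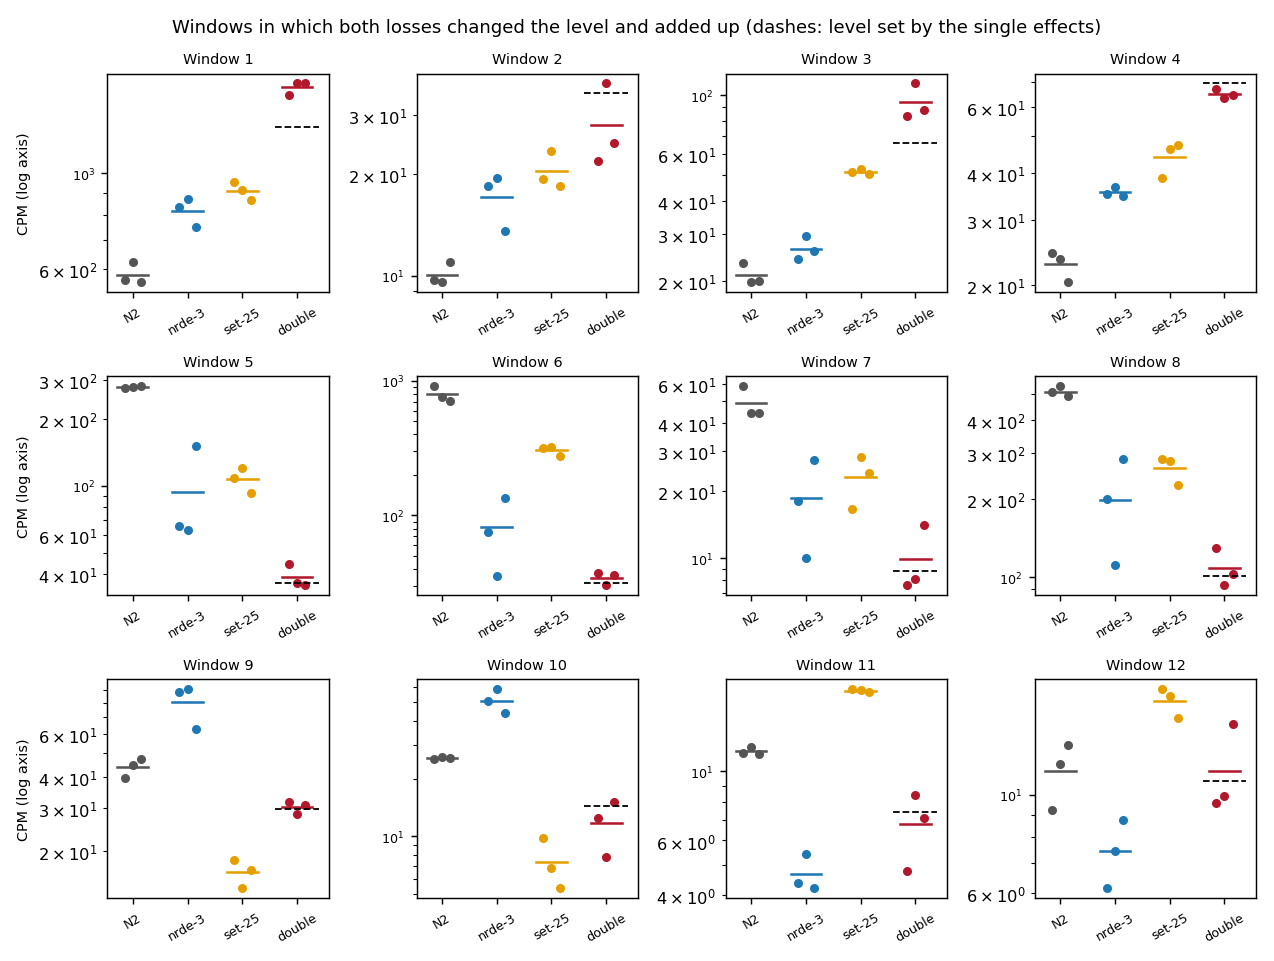
Levels in CPM of the 12 windows named for both average effects with an interaction interval within 2-fold of 0, 1 panel per window with 1 point per library and a line at each group mean, on a log axis. Panels follow the order 4 higher for both losses, 4 lower for both, 2 higher without nrde-3 and lower without set-25, and 2 of the reverse; the dashes show the double-mutant level from multiplied single effects, which is 31.5 CPM at II:311017-312016 against 34.5 measured.

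Some windows depended mainly on 1 of the 2 genes and changed by a similar factor whether or not the other was present. I:8386001-8387000 had 43.4, 39.0 and 44.3 CPM in N2 and 67.2, 67.5 and 71.2 in nrde-3, against 4.41, 4.80 and 3.29 in set-25 and 5.20, 6.01 and 4.50 in the double mutant. Both strains without set-25 lay far below both strains with it. The average set-25 effect was -3.52 ± 0.15 and the interaction -0.38 (95% interval -0.98 to 0.23). At I:12507020-12508019 N2 had 98.2 ± 5.65 CPM, nrde-3 129 ± 15.1, set-25 12.3 ± 2.35 and the double mutant 13.4 ± 4.18 (SD, n = 3), with an average set-25 effect of -3.15 ± 0.13. I:7528001-7529000 was higher without set-25 by 1.56 ± 0.11 on average, with an interaction of 0.40.

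For nrde-3, II:3374017-3375016 fell by 2.38 ± 0.10 on average, from 243, 230 and 225 CPM in N2 to 30.7, 38.6 and 44.3 in nrde-3 and from 122, 127 and 102 in set-25 to 22.8, 32.7 and 22.8 in the double mutant. It also fell by 0.77 ± 0.10 without set-25, and its interaction was 0.45 (95% interval 0.04 to 0.85, adjusted p = 0.279). II:2502017-2503016 fell by 1.89 ± 0.13 without nrde-3. Its average set-25 effect of -0.62 ± 0.13 also passed the test. The interaction in this window was 0.31, and it passed the test when nrde-3 replicate 3 was left out (0.69, adjusted p = 0.0271). The 2 adjoining windows II:1142017-1144016 rose by 1.46 ± 0.19 and 1.45 ± 0.17 without nrde-3, with interactions of -0.16 and -0.01.

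Departures among windows with an average set-25 effect lay mostly above 0 where that average was higher. A strain that stands apart alone enters both the average and the interaction, so these counts in part restate the interaction. At I:7895001-7896000, low in nrde-3 alone, the average set-25 effect was 1.74 ± 0.15, while the set-25 change against N2 was 0.01 ± 0.15. The same limit holds for windows chosen by the average nrde-3 effect. Of 754 windows with a higher average level on losing set-25 (7.53% of all), the interaction passed the test above 0 in 101 (13.4%) and below 0 in 13 (1.72%). The median set-25 change in these was 0.55 with nrde-3 present and 0.77 without it. Among the 187 that were at least 2-fold higher, 40 departed above 0 (21.4%) and 2 below (1.07%), and the medians were 1.02 and 1.61. In the 707 windows lower without set-25 (7.06%) the order was the other way, with 17 above (2.40%) and 37 below (5.23%), and median set-25 changes of -0.55 with nrde-3 and -0.69 without. No test of the difference between these counts was made. The count of 40 of 187 became 18 of 55 (32.7%) under scaling to library totals. It was 26 of 158 (16.5%) in the fit of all 18 libraries and 24 of 51 (47.1%) at a minimum count of 100.

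Windows chosen by the average nrde-3 effect had departures in both directions. Of 757 that were higher without nrde-3 (7.56% of all), 489 were within 2-fold of additivity (64.6%), 32 departed above 0 and 28 below, with median nrde-3 changes of 0.46 in N2 and 0.49 in the set-25 mutant. Of 419 that were lower (4.19%), 33 departed above and 26 below, with medians of -0.60 and -0.72. Among the 117 that were at least 2-fold lower, 13 departed above 0 (11.1%) and 4 below (3.42%), with medians of -1.76 in N2 and -1.37 in the set-25 mutant. Without nrde-3 replicate 3 these last counts were 33 and 2 of 139 windows.

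**Figure D5:**
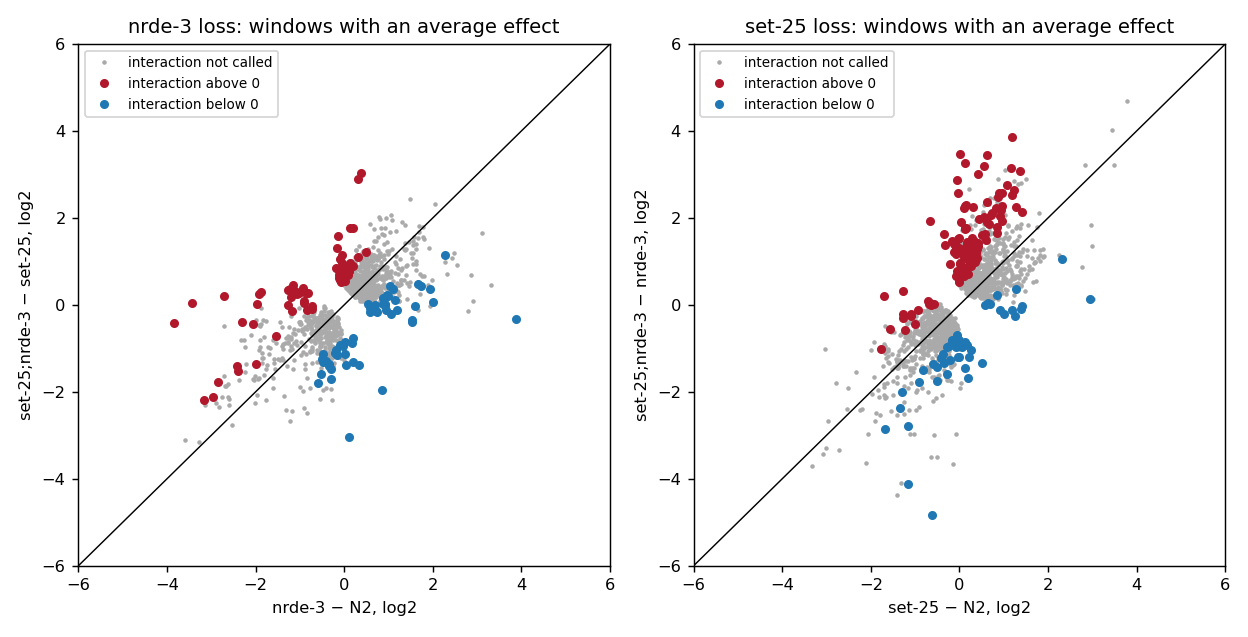
Effect of each loss with the other gene absent (vertical axis, log2) against its effect with the other gene present (horizontal axis, log2), for the windows with an average effect of that loss; the diagonal marks equal effects and coloured points are windows whose interaction passed the test. In the set-25 plot the medians of the higher windows are 0.55 and 0.77.

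In a few windows a single strain stood apart while the other 3 group means lay within 2-fold of one another, a description made after the values were seen. Of the 280 windows with an interaction, nrde-3 stood apart as the lowest in 13 and the highest in 6, the double mutant as the highest in 9 and the lowest in 6, set-25 as the highest in 3 and the lowest in 1, and N2 as the highest in 1. The other 241 had no such pattern. In the 13 windows that were low in nrde-3 alone, met-2;nrde-3 differed from N2 by a median of -0.13 and was 2-fold lower in 1, while met-2 differed by a median of -2.38 and was 2-fold lower in 10. Low met-2 levels were not particular to these windows. Among the windows with an interaction, met-2 was 2-fold lower in 4 of the 6 that were low in the double mutant alone. It was so in 3 of the 6 high in nrde-3 alone and in 1 of the 9 high in the double mutant alone. Of all 45 tested windows low in nrde-3 alone, met-2 was 2-fold lower in 22, with a median of -0.78. Over all windows tested, met-2 was 2-fold lower than N2 in 2274 of 10010 and met-2;nrde-3 in 619. The met-2;nrde-3 libraries varied widely among themselves, and whether the double mutants differ from each other was not tested.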

How the data were processed

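Per the series' design text, the authors used the FASTX-Toolkit for adapter removal and collapsing and QuasR for mapping to WS220 (ce10); tool versions are not given in the sources used here. Libraries came from TAP-treated small RNA with the QiaSeq miRNA kit, read as single-end 50-base reads. The deposited values are unscaled read counts per 20-bp bin, both strands together. The design text also names scaling to total reads, which whole numbers do not show. The annotation at hand is of another build and coordinates were not converted, so windows carry no gene names and no sequence is printed.

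Bins were summed to 1-kb windows. The 12 libraries were fitted in edgeR 4.0.16 (R 4.3.3) with 1 coefficient per group, filterByExpr at a minimum count of 10, TMM, glmQLFit and glmQLFTest, and Benjamini-Hochberg adjustment over 10010 windows. The model was tested on simulated data. SE and 95% intervals are Wald estimates from quasi-likelihood dispersions and cover the spread between libraries. Windows with 3 reads or fewer in a group (16 tested) got no fold change. Levels of met-2 and met-2;nrde-3 are on a TMM scale of all 18 libraries.

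Named windows were the 8 largest interactions on each side above the median level, with called neighbours; the largest additive windows (4 higher for both, 4 lower for both, 2 of each opposed kind); and the 2 largest rises and falls for each gene alone. The members and lists were chosen with earlier results of these data known. Alternatives were library totals, RLE size factors, DESeq2 1.42.0, no filter, a minimum count of 100, all 18 libraries, the replicate block, leaving out the last 13 kb of chromosome I, and each library in turn. Within groups, Spearman correlations of window counts were 0.924 to 0.964 and no pair of libraries agreed within sampling noise.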

Additional observations from a re-analysis of the deposited data

Results flagged for a closer look

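The 28 named windows with an interaction were chosen among those that passed edgeR's interaction test with Benjamini-Hochberg adjustment. That all of them passed is therefore no further result. This test compares the effect of losing nrde-3 in N2 with that in the set-25 mutant. The differences above 0, on the log2 scale, were 3.46 at I:7895001-7896000, 2.93 at I:7894001-7895000, 3.41 at I:304001-305000 and 3.12 at I:11814020-11815019. On chromosome II they were 2.59, 2.90 and 2.52 in the 3 windows from II:4171017. At I:10630020-10632019 they were 2.63 and 2.59. In the 7 windows from I:11169020 they were 1.71, 0.94, 0.90, 1.25, 2.68, 2.82 and 1.64. The differences below 0 were -4.21 at II:2006017-2007016, -2.81 and -1.51 in the 2 windows from I:11902020, and -1.91 and -1.94 in the 2 windows from I:2776001. They were -1.25, -1.86, -1.29 and -1.21 in the 4 windows from I:1734001, -1.88 at I:10501020-10502019, -1.69 at II:1645017-1646016 and -1.64 at I:2381001-2382000. No explanation was weighed for any of them.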

How the results depend on the processing

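No named interaction that passed the test changed sign under any alternative. Some that did not pass changed sign, as at II:311017-312016, where the interaction ran from -0.25 to 0.68. Over the named windows and alternatives, 918 results kept their side of the threshold, 9 lost the call and 1 gained it. Scaling to library totals left 74 interactions above 0 and 19 below, 3 exceeding the sum and 90 buffered or turned, and moved the average effects to 122 higher and 931 lower for nrde-3 and 151 higher and 5163 lower for set-25. A minimum count of 100 gave 492 windows higher for nrde-3 and 441 higher and 461 lower for set-25. The fit of all 18 libraries gave 95 interactions above 0, 48 below, 27 exceeding and 116 buffered or turned, with 262 windows lower for nrde-3 and 151 of both effects within 2-fold of additivity. The 2-fold set-25 rises with an interaction above 0 numbered 18 of 55, 24 of 51 and 26 of 158 under these 3 settings, against 40 of 187 as reported. The cause was not tested.

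Leaving out each library in turn gave 104 to 229 interactions above 0 (177 with all), 59 to 142 below (103), 31 to 65 exceeding (52) and 136 to 306 buffered or turned (228). It gave 586 to 801 windows higher and 341 to 465 lower for nrde-3, 657 to 790 higher and 599 to 701 lower for set-25, 155 to 235 additive 2-effect windows, and 32 to 45 of the 2-fold set-25 rises above 0. The libraries that lowered an interaction count by over 1.5 times were N2 replicate 1 (111 above), N2 replicate 2 (104 above, 34 exceeding, 147 buffered or turned), N2 replicate 3 (32 exceeding), set-25 replicate 2 (108 above, 59 below, 31 exceeding, 136 buffered or turned), and double-mutant replicates 2 (64 below) and 3 (66 below). DESeq2 gave 156 and 95, RLE size factors 177 and 110, no filter 208 and 136, and the fit without the end of chromosome I 196 and 111. Of 3 equal classes by level, 9 of 3337 windows passed in the lowest and 244 of 3337 in the highest.

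The replicate numbers did not pair the libraries: deviations of same-numbered libraries correlated at a median of -0.01 (-0.07 to 0.06, 18 pairs) and those of different numbers at 0.01. With the replicate block, 161 interactions were above 0 and 90 below, 51 exceeded the sum, 200 were buffered or turned, 698 windows were higher and 387 lower for nrde-3, 730 higher and 674 lower for set-25, and 200 were additive for both.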
